A study of Mus musculus with 6 samples.

Results

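The genes described here encode subunits of the proteasome, and were taken as a list of 31 symbols that holds 11 members of the 20S core (Psma1 to Psma7 and Psmb1 to Psmb4) and 20 members of the 19S regulatory particle (Psmc1 to Psmc6 and Psmd1 to Psmd14). Each was represented by the brightest probe set that the platform annotation assigns to that symbol alone, judged by the mean of 6 arrays. All 31 were found among the 18193 genes measured in this way, and all 31 had a mean log2 signal above the array median of 8.13. Expression was measured in lung endothelial cells (ECs) of female NSG mice, immunodeficient animals that have no T cells, B cells or natural killer cells and were 6 to 8 weeks old when they received MDA-MB-231-LM2 cells, a lung-seeking human breast cancer line, through the tail vein. In the clodronate-liposome group (3 arrays), liposomes carrying clodronate, which kills phagocytes that take it up, were injected on days 14, 16 and 18, and in the PBS-liposome group (3 arrays) the liposomes carried PBS. Lungs of both groups held metastases and were collected on day 20 (3 weeks in the labels). The ECs were sorted as CD31-positive cells without hematopoietic, epithelial, fibroblast or tumor cell markers. The replicates are called biological in the labels, which do not give the number of mice in each.

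The proteasome degrades proteins that carry ubiquitin chains, in the cytosol and in the nucleus. Its 20S core is a barrel of stacked rings. The alpha rings form the gate and the beta rings hold the proteolytic sites, which sit in subunits other than the 4 beta subunits listed here. The 19S particle caps the barrel, binds ubiquitin chains, removes them, and unfolds the substrate with a ring of ATPases. Cells exposed to interferon replace the catalytic beta subunits with immunoproteasome subunits, while the alpha subunits, the other beta subunits and the 19S subunits stay part of either form. The comparison asked whether transcripts of this shared framework differed between ECs of macrophage-depleted and control mice, and whether core and regulatory particle differed alike.

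The sorted cells carried endothelial transcripts. The 8 endothelial markers (Pecam1, Cdh5, Tek, Kdr, Cldn5, Esam, Emcn and Vwf) had mean log2 signals from 12.03 to 13.59 and a median difference of 0.056. All differences are given as log2 values of clodronate-liposome minus those of PBS-liposome arrays. The 9 macrophage and leukocyte markers had differences below 0 in 9 of 9 cases, with a median of -0.58, 0 past an adjusted p of 0.05 in limma and 6 at an unadjusted p under 0.05. Their mean log2 signal was 8.21 to 8.51 on PBS-liposome and 7.75 to 7.89 on clodronate-liposome arrays. Fewer such cells and less RNA per cell cannot be told apart in sorted bulk samples, and their part in the values below was not tested. The 4 fibroblast and mural markers were also below 0 in 4 of 4 cases (median -0.24, 0 past the adjusted threshold of limma and 1, Pdgfrb, at an unadjusted p under 0.05), as were the 4 epithelial markers (median -0.090, with 0 at either limit). Replicates differed widely in some of these genes, and Sftpc, a surfactant gene of the alveolar epithelium, read 11.38, 10.14 and 11.35 on PBS-liposome and 8.49, 12.78 and 11.47 on clodronate-liposome arrays. Mesothelial markers had a median difference of 0.49 with 1 array high (9.30 on clodronate-liposome replicate 3, against 7.33 to 8.10), the erythroid marker Alas2 differed by -0.68 and platelet markers had a median of -0.15, again with 0 at either limit. Clodronate-liposome replicates 1 and 3 stood apart in control probe sets. Hybridization controls read 11.91 and 11.94 in them against 12.11 to 12.24 on the other 4 arrays, and 18S ribosomal RNA controls read 13.01 and 13.00 against 12.33 to 12.63.

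No member differed between the groups at the threshold of limma's moderated test. At an adjusted p under 0.05, taken over all 45037 probe sets, 0 of 31 members passed, where 0.434% of all genes did (0.346% lower and 0.0879% higher). At an unadjusted p under 0.05 limma again gave 0 of 31, where 10.0% of all genes passed. Log2 differences of the members ran from -0.18 in Psmd7 to 0.25 in Psmd13. Their median was -0.030, beside -0.0031 over all genes. Of the 31 members 21 lay below 0 (67.7%), as did 50.9% of all genes. In 3 members (Psma7, Psmc3 and Psmc6) all 3 clodronate-liposome arrays read lower than all 3 PBS-liposome arrays, and in 0 members higher, where 8.75% and 7.49% of all genes showed groups without overlap in these directions.

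The intervals show how large a difference the arrays leave room for. The 95% confidence interval lay inside -0.5 to 0.5 on the log2 scale, a 1.41-fold change either way, in 30 of 31 members and in 72.2% of all genes. The exception was Psmd13, whose interval reached 0.66. To pass the adjusted threshold with its own standard error, a member would have needed a log2 difference of 0.59 to 1.20, with a median of 0.65 or 1.57-fold. Smaller differences would not have passed with 3 arrays per group.

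**Figure D1:**
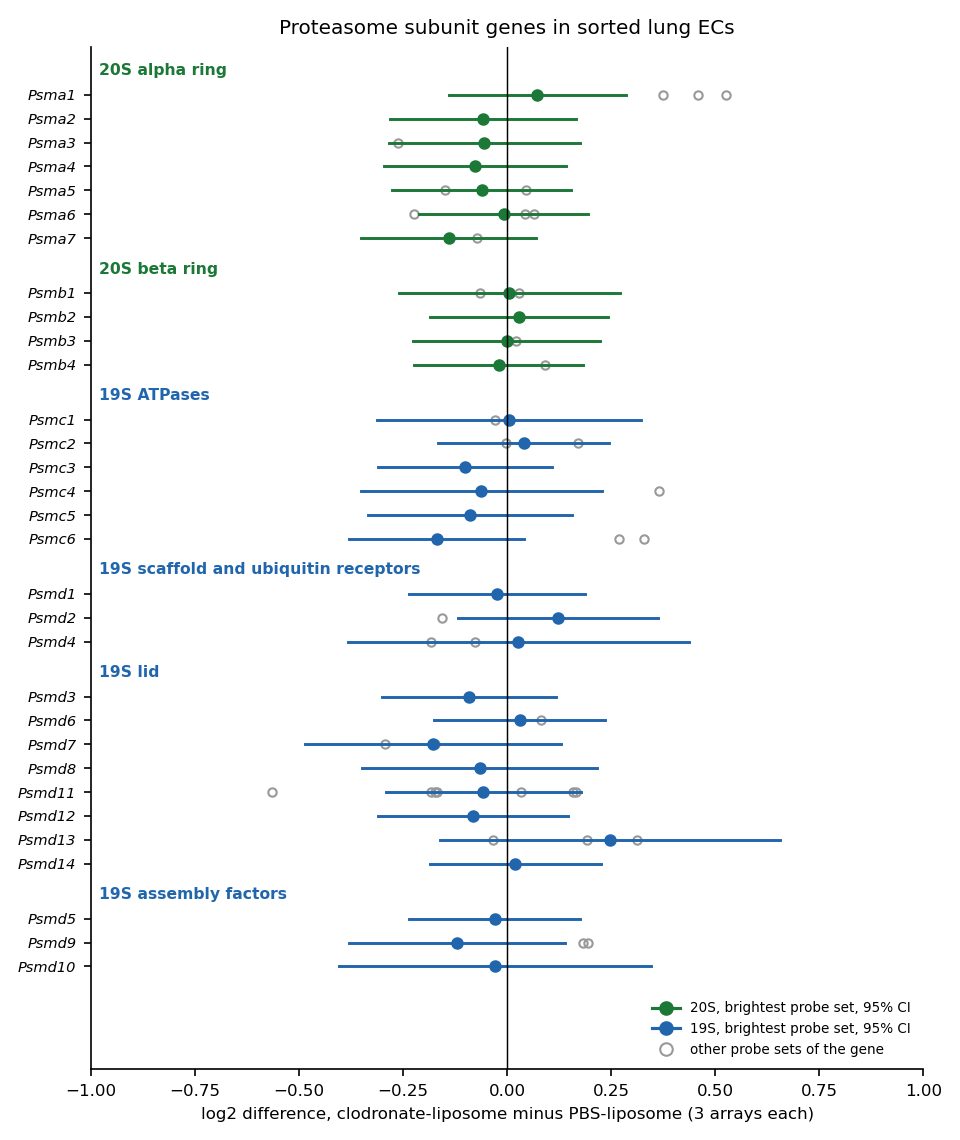
Log2 difference (horizontal axis, treated minus control mean of 3 arrays each) of 31 proteasome genes (vertical axis, grouped by role), with filled dots for the brightest probe set, lines for its 95% confidence interval and open circles for other probe sets of the gene. Every interval includes 0, and the filled dots lie between -0.18 and 0.25.

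The start regions of the genes were read next for motifs of factors known to act on proteasome or interferon-induced genes. RefSeq promoter windows of assembly GRCm38.p6, 250 bases before to 50 after a start, were matched by symbol for 26 of the 31 members (28 windows), all but Psmb1, Psmb2, Psmc3, Psmd3 and Psmd7. The antioxidant response element core TGACNNNGC, bound by Nfe2l1 and Nfe2l2, was found on either strand in 3 of 28 windows, where 12.4% of all 32851 windows hold it. Those were Psmc6, Psmd9 and Psmd12, all of the 19S. The CCAAT box, a short element of many housekeeping promoters, was found in 11 of 28 windows (37.4% of all windows), 6 of 10 of the 20S and 5 of 18 of the 19S. The core of the interferon-stimulated element, GAAA repeated after any 2 bases, was found in 3 of 28 windows (3.44% of all windows), in Psmb3, Psmd4 and Psmd9. All were searched on both strands and counted separately, also where matches overlap, and a match describes letters, not binding. The following lines give the 250 bases before the start of the 20S member with the lowest difference (Psma7, chr2:180042465-180042714, minus strand), of the member with the smallest p (Psmc6, chr14:45329574-45329823, plus strand) and of that with the highest difference (Psmd13, chr7:140882144-140882393, plus strand), 5′ to 3′ in the sense of the gene, with matches to any of the 3 motifs in capitals.
Psma7: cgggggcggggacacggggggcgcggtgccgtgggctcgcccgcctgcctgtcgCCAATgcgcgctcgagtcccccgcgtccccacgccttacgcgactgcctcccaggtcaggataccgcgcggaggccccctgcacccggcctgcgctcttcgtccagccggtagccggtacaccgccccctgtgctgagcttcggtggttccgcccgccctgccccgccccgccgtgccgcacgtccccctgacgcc
Psmc6: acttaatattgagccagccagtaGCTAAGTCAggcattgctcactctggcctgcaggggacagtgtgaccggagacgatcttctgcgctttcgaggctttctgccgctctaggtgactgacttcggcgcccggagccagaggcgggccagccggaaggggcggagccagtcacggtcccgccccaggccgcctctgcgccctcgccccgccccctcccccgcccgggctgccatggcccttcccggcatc
Psmd13: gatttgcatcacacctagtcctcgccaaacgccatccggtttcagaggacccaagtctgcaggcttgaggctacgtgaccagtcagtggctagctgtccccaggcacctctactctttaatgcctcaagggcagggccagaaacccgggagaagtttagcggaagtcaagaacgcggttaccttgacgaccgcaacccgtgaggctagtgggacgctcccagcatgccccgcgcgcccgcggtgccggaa
The capitals mark a CCAAT box at position -196 in Psma7 and an antioxidant element core, on the opposite strand, at -227 in Psmc6, counted from the start site. In Psmd13 none of the 3 motifs was found in this window.

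The alpha ring of the 20S core, which gates entry to the barrel, had a median difference of -0.058 over 7 genes, with 1 above 0 and 6 below. Psma7 had the lowest value of the ring. It read 12.47, 12.44 and 12.58 on PBS-liposome and 12.35, 12.36 and 12.36 on clodronate-liposome arrays. The groups did not overlap, and the difference was -0.14 (SE 0.091, adjusted p = 0.655 by limma). Its second probe set differed by -0.072. Psma1, with the highest difference of the ring, read 12.67, 12.67 and 12.67 on PBS-liposome and 12.65, 12.81 and 12.77 on clodronate-liposome arrays. Clodronate-liposome replicate 1 lay below all PBS-liposome arrays, so the groups overlapped, and the difference was 0.072 (95% confidence interval -0.14 to 0.29, adjusted p = 0.855). The other 5 alpha genes, Psma2 to Psma6, differed by -0.078 to -0.0082.

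The 4 beta subunits, which complete the inner rings without carrying a proteolytic site of their own, had a median difference of 0.0017 with 2 above 0 and 2 below. Psmb2 had the highest difference, with 13.04, 13.07 and 13.10 on PBS-liposome and 13.16, 13.00 and 13.12 on clodronate-liposome arrays. The 3 clodronate-liposome arrays spanned the PBS-liposome ones, and the difference was 0.029 (95% confidence interval -0.19 to 0.24). Psmb4 had the lowest, with 12.57, 12.60 and 12.61 against 12.59, 12.61 and 12.53. Its groups also overlapped, and the difference was -0.020 (95% confidence interval -0.22 to 0.18). Psmb1 and Psmb3 differed by 0.0048 and -0.0014.

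The 6 ATPases of the 19S base, which unfold substrates and open the core's gate, had a median difference of -0.075, with 2 above 0 and 4 below. Psmc6 had the smallest p of all 31 members. It read 12.35, 12.49 and 12.45 on PBS-liposome and 12.27, 12.28 and 12.24 on clodronate-liposome arrays. Every clodronate-liposome array was lower than every PBS-liposome array, and the difference of -0.17 (SE 0.091, adjusted p = 0.571 by limma) did not pass. Other probe sets of Psmc6 pointed the other way, at 0.33 and 0.27. Psmc3 read 12.50, 12.49 and 12.57 against 12.47, 12.36 and 12.42, again without overlap. Its difference was -0.10 (SE 0.090, adjusted p = 0.771 by limma). Psmc2, the ATPase with the highest difference, read 12.29, 12.40 and 12.35 against 12.41, 12.36 and 12.39, with overlapping groups and a difference of 0.039 (95% confidence interval -0.17 to 0.25). Psmc1, Psmc4 and Psmc5 differed by 0.0049, -0.062 and -0.089.

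Psmd1 and Psmd2 are large scaffold subunits of the base, and Psmd4 is a receptor for ubiquitin chains. Psmd2 had the highest difference of these, with 12.28, 12.31 and 12.51 on PBS-liposome and 12.56, 12.43 and 12.48 on clodronate-liposome arrays. PBS-liposome replicate 3 lay among the clodronate-liposome values, and the difference was 0.12 (SE 0.10, adjusted p = 0.753 by limma). A second, dimmer probe set of Psmd2 differed by -0.16. Psmd1 had the lowest, with 12.79, 12.93 and 12.89 against 12.89, 12.81 and 12.84 and a difference of -0.024 (95% confidence interval -0.24 to 0.19). Psmd4 differed by 0.027, with an interval from -0.38 to 0.44 that was the widest of the 31 members. Dimmer probe sets of Psmd4 differed by -0.18 and -0.077.

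The lid of the 19S, 8 subunits around the deubiquitinase Psmd14, had a median difference of -0.062 and held both extremes of the list. Psmd13, a scaffold subunit of the lid, read 10.93, 10.77 and 11.07 on PBS-liposome and 11.41, 10.78 and 11.32 on clodronate-liposome arrays. Replicates 1 and 3 of the clodronate-liposome group lay above all PBS-liposome arrays, while replicate 2 lay at the level of the lowest one. The difference was 0.25 (SE 0.18, adjusted p = 0.693 by limma). It was 0.45 without clodronate-liposome replicate 2, with an adjusted p of 0.225 by limma, and -0.15 with that replicate as the only treated array. Psmd7, the partner of Psmd14 in the lid, read 11.37, 11.36 and 11.60 against 11.48, 11.07 and 11.25. Its groups overlapped, and the difference was -0.18 (SE 0.13, adjusted p = 0.707 by limma). It was -0.079 without clodronate-liposome replicate 2, -0.10 without PBS-liposome replicate 3, -0.29 without clodronate-liposome replicate 1 and -0.38 with replicate 2 as the single treated array. Psmd14 itself, which cuts ubiquitin chains from the substrate, differed by 0.019, with an interval from -0.19 to 0.22. Psmd3, Psmd6, Psmd8, Psmd11 and Psmd12 differed by -0.091 to 0.030.

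Psmd5, Psmd9 and Psmd10 carry 19S names but are chaperones that help the base assemble and leave the finished particle. Psmd10, also known as gankyrin, read 10.10, 10.70 and 10.29 on PBS-liposome and 10.46, 10.34 and 10.21 on clodronate-liposome arrays. The PBS-liposome arrays spread more widely than the treated ones, and the difference was -0.029 (95% confidence interval -0.40 to 0.35). Psmd9 read 10.01, 9.77 and 10.08 against 9.90, 9.79 and 9.79. Its groups overlapped, and the difference was -0.12 (95% confidence interval -0.38 to 0.14). Dimmer probe sets of Psmd9 differed by 0.19 and 0.18. Psmd5 differed by -0.030 (SE 0.089).

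**Figure D2:**
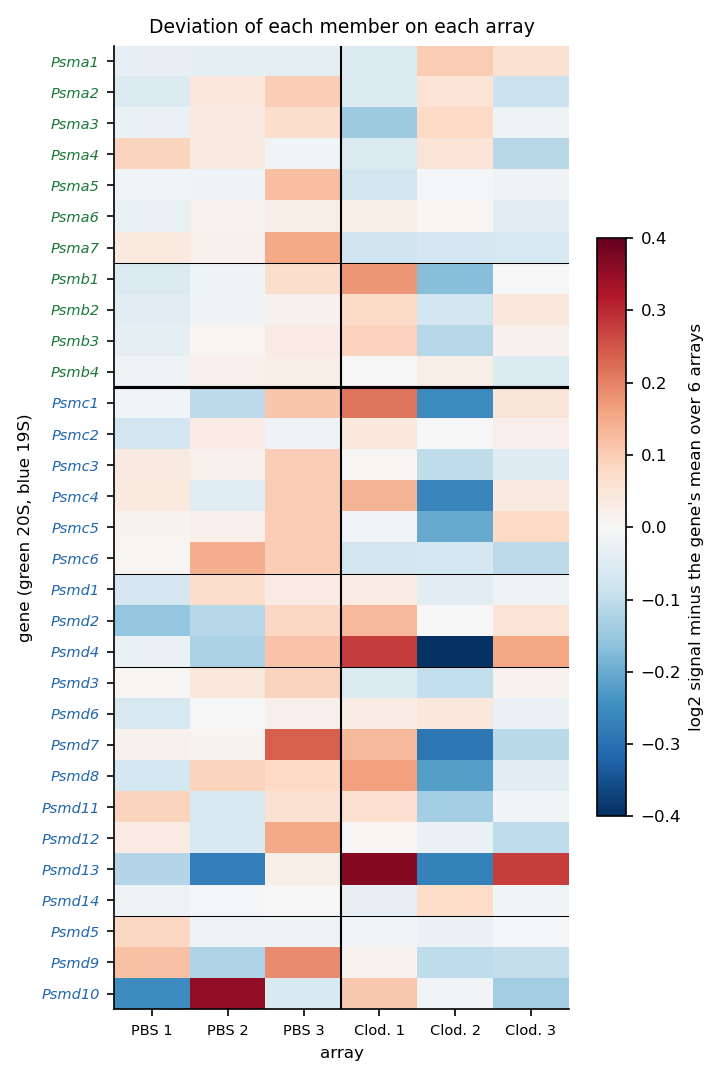
Log2 signal of each member (rows, 20S above the thick line, 19S below) on each array (columns) minus the gene's own mean over the 6 arrays, from blue (lower) to red (higher). Psmc1, Psmc4, Psmd4, Psmd7, Psmd8 and Psmd13 are blue on clodronate-liposome replicate 2.

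Core and regulatory particle had similar median differences. The 11 core genes had a median difference of -0.020 (-0.14 to 0.072) and the 20 regulatory genes one of -0.043 (-0.18 to 0.25), a gap of 0.024 between the medians. Without the 3 assembly chaperones the 19S median was -0.057 and the gap 0.037. On the arrays themselves, the mean deviation of the core genes from their own means was taken minus that of the regulatory genes. This quantity was 0.0045, 0.016 and -0.023 on PBS-liposome arrays and -0.084, 0.11 and -0.023 on clodronate-liposome arrays. Its group means differed by 0.0017, against an SD of 0.020 among PBS-liposome and 0.099 among clodronate-liposome arrays. No test was made of these scores, since the members were chosen with earlier results known.

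Within the clodronate-liposome group, replicates 1 and 2 each set the alpha ring apart from the beta ring and the 19S, with opposite signs. On replicate 1 the 7 alpha genes averaged -0.063, the 4 beta genes 0.088 and the 19S genes 0.076 from their own means. On replicate 2 the 19S genes averaged -0.12 and the 4 beta genes -0.085 from their own means, while the 7 alpha genes averaged 0.032. The 20S mean of -0.010 on replicate 2 joins these opposite values. Replicate 2 was the lowest of all 6 arrays for 10 of 20 regulatory genes (50.0%), for 3 of 4 beta genes, for 0 of 7 alpha genes and for 19.3% of all genes. Replicate 1 was the lowest for 1 of 20 regulatory, 0 of 4 beta and 4 of 7 alpha genes, beside 18.0% of all genes. It was the highest for 7 of 20 regulatory, 3 of 4 beta and 0 of 7 alpha genes, beside 21.2% of all genes. Relative to the mean of replicates 1 and 3, replicate 2 was lower by over 0.25 in 7 members, where 14.3% of all genes were. Their gaps were -0.61 in Psmd4, -0.59 in Psmd13, -0.39 in Psmc1, -0.35 in Psmc4, -0.30 in Psmd7, -0.28 in Psmd8 and -0.26 in Psmb1. The median gap was -0.15 in the beta ring and -0.078 in the 19S, beside 0.0096 over all genes, and the alpha genes had gaps of 0.0067 to 0.16. Gaps lay below 0 in 3 of 4 beta, 15 of 20 regulatory and 0 of 7 alpha genes, beside 48.2% of all genes. Fibroblast and mural markers also had their lowest array mean on replicate 2 (9.13, against 9.41 to 9.80 on the other arrays). Of these, Col1a1 and Dcn were lowest there, and Pdgfra and Pdgfrb on other arrays. The erythroid marker Alas2 (7.75, against 8.19 to 9.24) was lowest on replicate 2 too. The mean of the endothelial markers was 13.103 there, close to 13.104 on PBS-liposome replicate 2, and at most 13.300 on the other arrays. Of these markers, Cdh5 and Kdr were lowest on clodronate-liposome replicate 2. Pecam1, Tek, Cldn5, Esam, Emcn and Vwf were lowest on PBS-liposome arrays. Leukocyte, epithelial, mesothelial and platelet markers were lowest on other arrays. The part of these markers in the member values was not tested. Hybridization controls (12.20) and 18S controls (12.33) of replicate 2 lay nearer to those of PBS-liposome arrays than to those of replicates 1 and 3, and the part of this in the 19S values was not tested. With it as the only treated array the 19S median was -0.15 and the gap between the medians 0.15, whereas without it they were -0.0093 and -0.027. PBS-liposome replicate 3 was the highest array for 11 of 31 members (35.5%), compared with 14.7% of all genes.

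**Figure D3:**
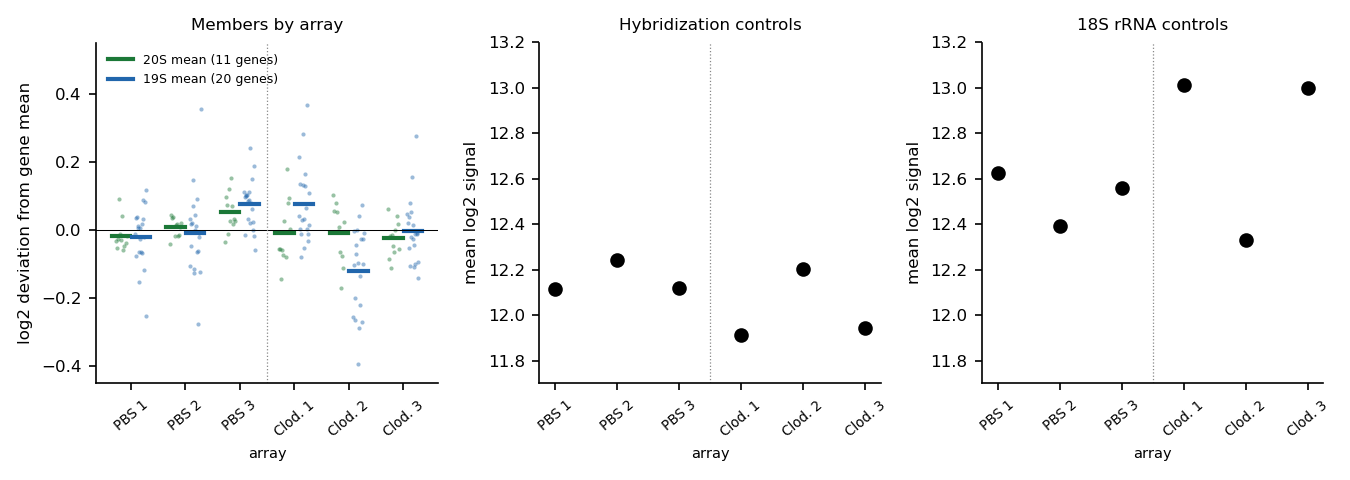
Left, log2 deviation of each 20S (green) and 19S (blue) gene from its own mean on each array, with bars for the mean of 11 and 20 genes. Middle and right, mean log2 signal of hybridization controls and of 18S ribosomal RNA controls per array. The 19S bar is lowest on clodronate-liposome replicate 2 (-0.12), the array of that group with 18S controls at 12.33.

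The members had 69 probe sets in all, and 19 genes had more than 1. Of these 19 genes 14 had probe sets on both sides of 0. Of the 69, 0 passed the adjusted threshold of limma, where 0.238% of all probe sets did as lower and 0.0688% as higher. At an unadjusted p under 0.05 there were 7 (10.1%, beside 10.8% of all probe sets), 1 lower and 6 higher, where 5.27% and 5.53% of all probe sets were. All 7 were among the 38 probe sets dimmer than the brightest of their gene (18.4%). Groups did not overlap in 6 lower and 7 higher probe sets, beside 8.04% and 7.97% of all. Psma1 had 3 such probe sets, at 0.53, 0.46 and 0.37, next to 0.072 for its brightest. Their mean log2 signals of 8.12, 6.13 and 5.98 lay below the array median of 8.13, as did that of 6.99 of the Psmd13 probe set at this limit, so 4 of the 7 were in the dimmer part of the array. The second probe set of Psmc4 differed by 0.36 (SE 0.097, adjusted p = 0.207 by limma) where the brightest differed by -0.062. It read 10.43, 10.49 and 10.51 on PBS-liposome and 10.81, 10.76 and 10.95 on clodronate-liposome arrays, without overlap. Psmd11 was the gene with the most probe sets, 8, whose differences ran from -0.56 to 0.17. The lowest of them read 11.78, 12.04 and 11.95 against 11.10, 11.94 and 11.04. Here replicate 2 of the clodronate-liposome group again lay with the PBS-liposome arrays and away from replicates 1 and 3. The remaining probe sets at this limit belonged to Psmc6 (0.33) and Psmd13 (0.31). Of the 38 dimmer probe sets, 9 carry a suffix that marks possible binding to related transcripts, as does 1 of the 31 brightest, that of Psmd11.

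The lowest differences among other genes of the pathway were those of Psmb9 and Psmb8, subunits that interferon induces. Of 43 listed genes 33 had a probe set of their own, and 0 passed the adjusted threshold of limma in either direction. At an unadjusted p under 0.05 4 were lower and 1 higher, where 5.49% and 4.54% of all genes were. Groups did not overlap in 6 lower and 3 higher genes, beside 8.75% and 7.49% of all genes. The 6 lower were Psmb8, Psmb9, Psmb10, Psme1, Sem1 and Rad23b. The 3 higher were Psmb11 (0.13), Ubqln2 (0.15) and Ubqln1 (0.23). The immunoproteasome subunits Psmb8, Psmb9 and Psmb10 differed by -0.35, -0.48 and -0.15 (adjusted p = 0.230, 0.127 and 0.612 by limma), each with groups that did not overlap. The constitutive catalytic subunits they replace, Psmb5, Psmb6 and Psmb7, differed by 0.032, 0.055 and -0.055. Psme1, a subunit of the interferon-inducible PA28 activator, read 12.46, 12.46 and 12.50 on PBS-liposome and 12.28, 12.27 and 12.23 on clodronate-liposome arrays. Its difference was -0.21 (SE 0.087, adjusted p = 0.428 by limma). The activators Psme3 and Psme4 and the inhibitor Psmf1 differed by 0.10, 0.032 and 0.051, and a dimmer probe set of Psmf1 differed by 0.58 (adjusted p = 0.170 by limma).

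Genes that build or serve the proteasome were measured as well. The 6 measured assembly genes, among them Pomp, the chaperone that matures the core, differed by -0.16 to 0.16. Sem1, the smallest subunit of the lid, differed by -0.17 in its brightest and by -0.19 in its second probe set. Groups did not overlap in either, where 8.04% of all probe sets were lower without overlap. The deubiquitinases Usp14 and Uchl5, which trim chains at the base, differed by -0.019 and 0.036. Among shuttle factors, which carry ubiquitinated proteins to the 19S, Rad23b differed by -0.26 (SE 0.096, adjusted p = 0.383 by limma) and Ubqln1 by 0.23 (SE 0.090, adjusted p = 0.417 by limma), neither past the threshold. Dimmer probe sets differed by -0.64 to 0.14 in Rad23b and by -0.27 and -0.011 in Ubqln1. Vcp, the segregase that extracts substrates from complexes and membranes, differed by -0.11. Nfe2l1, the factor that raises transcription of proteasome genes when proteasome activity falls short, read 11.90, 11.67 and 11.79 against 11.98, 11.60 and 11.90. Its difference was 0.042 (95% confidence interval -0.25 to 0.34), and that of its relative Nfe2l2 was 0.0020.

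**Figure D4:**
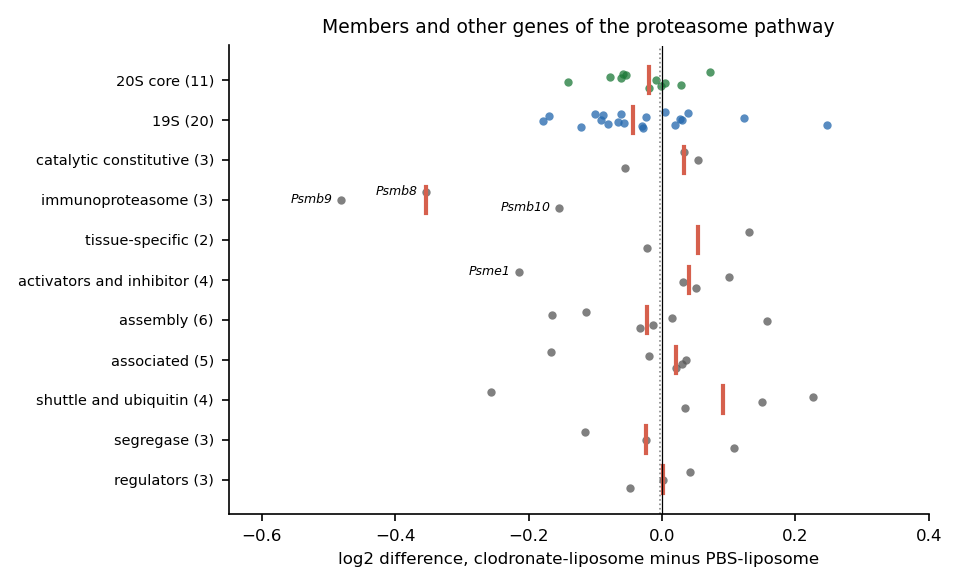
Log2 difference (horizontal axis, treated minus control mean) of the 20S and 19S members and of 9 groups of other pathway genes (vertical axis, with the number of genes measured), each dot a gene by its brightest probe set and each red mark a median. The dotted line is the median of all genes (-0.0031). Psmb8, Psmb9, Psme1 and Rad23b lie to the left of every member.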

How the data were processed

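RNA of 6 sorted EC samples was hybridized to Affymetrix mouse expression arrays, 1 for each sample. The deposited log2 signals were made by the authors by robust multiarray averaging of scanner files in Chipster v.3.8.0, and were used as deposited. The treatment label of each sample gave its group. The 64 control probe sets were set aside and 45037 tested without a filter. The annotation gave 34945 of them 1 symbol, 932 several and 9160 none.

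A linear model with the treatment as its single term was fitted to every probe set (limma 3.58.1 under R 4.3.3, empirical Bayes variance, two-sided p-values, 4 residual and 3.90 prior degrees of freedom), with Benjamini-Hochberg adjustment over all probe sets. The steps were tested on simulated data. The members, the lists of pathway and marker genes and the tests were chosen with earlier results of these data known. Members printed in full were the 6 with the smallest p and the highest and lowest of each of 6 roles, 13 in all. Other pathway genes are given where p was under 0.05 and otherwise as examples or ranges. Alternatives covered filtering, normalization, variance model, weights, covariates, the replicate number as a block, probe set choice and leaving out arrays. The number of arrays limits the precision of every value.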

Additional observations from a re-analysis of the deposited data

How the results depend on the processing

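The count of 0 of 31 members past limma's threshold held under all 17 alternatives, with smallest adjusted p values of a member between 0.145 and 0.807. At an unadjusted p under 0.05 it was at most 1 where the brightest probe set was kept or all were averaged. Those were Psmd7 with hybridization controls as covariate, Psma1 with averaged probe sets, Psmc6 with a trended and robust variance, and Psmd13 without clodronate-liposome replicate 2. With each gene's most variable probe set, Psma1 (0.53), Psmc4 (0.36) and Psmd11 (-0.56) were under this limit. Medians of 20S and 19S members ranged from -0.040 to -0.011 and from -0.10 to -0.0093 with 1 array left out, and the gap between them from -0.027 to 0.062. Taking each gene's most variable probe set, the 20S median was -0.058. With hybridization controls as a covariate the 19S median was -0.13 and the gap 0.11, and with the treated group reduced to its replicate 2, assumed to vary like the PBS-liposome arrays, -0.15 and 0.15. Signs turned for 9 of the 13 members printed in full, the highest difference (Psmd13) and that with the smallest p (Psmc6) among them. With that lone replicate they were -0.063 (Psmb2), 0.013 (Psmb4) and -0.15 (Psmd13), and with the hybridization covariate -0.030 (Psmb2), 0.0019 (Psmb4), -0.048 (Psmd13) and 0.066 (Psmd10). With the mean of all probe sets per gene they were 0.036 (Psmb4), 0.14 (Psmc6), -0.017 (Psmd2) and 0.085 (Psmd9), and with the most variable one 0.091 (Psmb4), -0.0027 (Psmc2), 0.27 (Psmc6), -0.16 (Psmd2) and 0.18 (Psmd9). With 1 array left out Psmb2 ranged from -0.0031 to 0.074, Psmb4 from -0.036 to 0.0028, Psmd1 from -0.064 to 0.0052 and Psmd10 from -0.16 to 0.14, and without a change of sign Psma1 from 0.039 to 0.12, Psmc2 from 0.011 to 0.066, Psmd2 from 0.077 to 0.20, Psmd9 from -0.21 to -0.057 and Psmd13 from 0.13 to 0.45. The cause was not tested.

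Over the whole array the count of 138 probe sets past the threshold was 17 after adjusting for the 3′ minus 5′ signal and 0 after adjusting for hybridization controls (4710 with an unadjusted p under 0.05), 234 with array weights, 244 with a filter on low signal, 248 with a trended and robust variance, 0 with the lone treated replicate (3964) and 6 to 73 with 1 array left out. With the replicate number as a block it was 0 (5033 at unadjusted p under 0.05), and the block changed no call of a member. Same-numbered arrays of both groups deviated together with correlations of 0.075, 0.070 and 0.036 over probe sets, and each array correlated best with its own number, a hint from the data and not from the labels.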
